A study of Homo sapiens with 18 samples.

Results

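Transcript levels of 10 ETS family transcription factor genes were followed in 3 acute myeloid leukaemia cell lines treated with RMC-4550, an allosteric inhibitor of the phosphatase SHP2. The genes were ETV1, ETV4 and ETV5 of the PEA3 group, ELK1, ELK3 and ELK4 of the ternary complex factor group, ETS1 and ETS2, and the repressors ETV3 and ETV6. They were taken as a family, with earlier results of these data known, and were found by symbol through the Ensembl IDs of the deposited table, and all 10 had a row among its 40184 gene IDs. Molm-14 and MV4-11 carry FLT3-ITD, an internal tandem duplication in the receptor tyrosine kinase gene FLT3, and SKNO-1 carries the N822K change in the receptor gene KIT, per the labels. Each line was given the vehicle DMSO or 500 nM RMC-4550 for 24 h, with 3 replicates, named biological in the labels, in each of the 6 groups. Both SKNO-1 groups were grown with GM-CSF at 10 ng/mL and the other lines without it, so line, genotype and growth factor cannot be told apart.

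ETS factors share a DNA-binding domain that reads a GGAA core, and several are the last step of signalling from receptor tyrosine kinases through SHP2, RAS and the kinase ERK. ERK phosphorylates ELK1, ELK3 and ELK4, which sit on promoters beside serum response factor (SRF), and also ETS1 and ETS2. The PEA3 genes are themselves switched on by the pathway: the repressor CIC holds them down until ERK relieves it, and the COP1 ubiquitin ligase destroys their proteins. ETV6 is a repressor needed by blood stem cells, and ETV3 is a repressor found in macrophages. Messenger RNA shows the supply of these factors, not their phosphorylation or activity.

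Promoter sequence was available for 7 of the 10 genes, in 14 windows of 300 bases, each 250 bases before to 50 after a RefSeq transcript start (GRCh38.p14). ETV4, ETV5 and ETS1 were not matched. ETV1 is shown for a CIC octamer, ELK4 for an ETS site and ETS2, the gene that rose, for its GGAA cores, each read in the direction of transcription. The ETV1 window lies at chr7:13991376-13991675 on the minus strand, and its capitals mark TGAATGGA, a form of the octamer that CIC binds, starting at -125 from the transcript start. The ELK4 window lies at chr1:205631962-205632261 on the minus strand, and its capitals mark CCGGAAGT, a strong ETS site, at -22. The ETS2 window lies at chr21:38805679-38805978 on the plus strand, and its capitals mark each GGAA core, written TTCC where it lies on the other strand.
ETV1: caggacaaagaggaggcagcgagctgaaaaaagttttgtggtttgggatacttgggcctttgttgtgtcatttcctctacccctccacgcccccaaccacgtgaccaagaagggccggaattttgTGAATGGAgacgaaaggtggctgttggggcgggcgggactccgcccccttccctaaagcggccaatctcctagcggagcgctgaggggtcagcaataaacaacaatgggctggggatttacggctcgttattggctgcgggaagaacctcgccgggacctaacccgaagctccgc
ELK4: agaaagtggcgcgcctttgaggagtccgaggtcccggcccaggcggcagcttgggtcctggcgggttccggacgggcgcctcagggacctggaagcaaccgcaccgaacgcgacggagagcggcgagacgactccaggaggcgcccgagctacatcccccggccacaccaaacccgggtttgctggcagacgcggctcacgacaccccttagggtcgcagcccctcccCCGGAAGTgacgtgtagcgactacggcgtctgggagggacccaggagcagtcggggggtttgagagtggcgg
ETS2: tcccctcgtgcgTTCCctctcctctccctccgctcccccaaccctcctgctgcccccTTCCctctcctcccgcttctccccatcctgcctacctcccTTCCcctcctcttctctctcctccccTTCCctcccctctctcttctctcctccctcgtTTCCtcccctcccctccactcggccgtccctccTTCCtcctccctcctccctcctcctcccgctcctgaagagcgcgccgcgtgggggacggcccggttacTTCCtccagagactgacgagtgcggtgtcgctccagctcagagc

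Motifs were searched on both strands. TGAATGGA was in 1 of the 14 windows and in 1.03% of all 35116 promoter windows, and CCGGAAGT, which contains GGAA, was in 1 of the 14 and in 4.14% of all. TGAATGAA, another form of the CIC octamer, was in 0 of the 14 and in 1.65% of all, the AP-1 site TGACTCA in 0 and in 4.95%, and the CArG box that SRF binds in 0 and in 1.29%. Further forms of the octamer were not searched. The GGAA core was in 14 of 14 and in 95.5% of all, with a median of 3 matches per window over all windows. The ETS2 window shown held 7, and the other ETS2 window, at chr21:38804933-38805232, held 4. Windows of the other members held from 2 to 8, with both ends of that range in ELK3, which was not called in any line. These matches describe letters in a window.

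Read totals ran from 17434810 to 19959917 per library, and the lowest correlation between replicates was 0.961 across genes, which are not independent replicates. Mitochondrial genes took 5.07% to 7.02% of the reads in 14 libraries and 10.52% to 15.0% in the other 4. Those 4 were replicate 2 of Molm-14 with RMC-4550 (15.0%), replicates 1 and 3 of MV4-11 with DMSO (12.7% and 14.6%) and replicate 1 of MV4-11 with RMC-4550 (10.52%). Values by that share stand beside most of the results they touch. Of 7 myeloid markers 6 had a row, and their summed level, in CPM (reads scaled to a library of common size), was 637 to 648 with DMSO and 914 to 1191 with RMC-4550 in Molm-14, 784 to 1050.0 and 852 to 1058 in MV4-11, and 1085 to 1157 and 1204 to 1396 in SKNO-1. Of the 6, ANPEP was at most 1.06 CPM and MPO at most 4.40 CPM in every Molm-14 and MV4-11 library. The T cell markers summed to at most 0.0577 CPM, the erythroid markers to at most 1.22, and the B cell markers to 1.36 to 17.8. The 3 stromal markers COL1A1, COL1A2 and PDGFRB summed to 3.81 to 14.8 CPM with DMSO and 4.07 to 12.2 with RMC-4550 in Molm-14, to 3.61 to 4.65 and 6.94 to 8.34 in MV4-11, and to 5.84 to 8.49 and 7.26 to 9.16 in SKNO-1. The treated and DMSO ranges did not overlap for the myeloid sums of Molm-14 or SKNO-1 or the stromal sums of MV4-11, and their part in the results was not tested. Among genes at 10 CPM or more in the Molm-14 vehicle libraries, 0 of 9261 dropped below 1% of their level in MV4-11, against 69 in SKNO-1. Among such genes of MV4-11, 61 of 9416 did so in Molm-14 and 29 in SKNO-1. Among those of SKNO-1, 123 of 9244 did so in Molm-14 and 13 in MV4-11. The bearing of this on the MV4-11 levels and responses was not tested. For 6 of the 10 ETS genes the MV4-11 level with DMSO lay between those of the other lines.

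With RMC-4550, ETV4 fell and ETS2 rose in all 3 lines, ETV5 fell in Molm-14 and SKNO-1, and ETV1 fell in Molm-14 and MV4-11. ELK1 and ETV6 fell in Molm-14, and ELK3, ELK4, ETS1 and ETV3 were not called in any line. In Molm-14, 6 of 10 genes were called at an adjusted p under 0.05 (limma, Benjamini-Hochberg over all genes tested), 1 higher and 5 lower, against 46.7% of all tested genes (21.5% higher, 25.2% lower). In MV4-11, 3 of 10 were called, 1 higher and 2 lower, against 13.9% (5.85% and 8.03%). In SKNO-1, 3 of the 8 tested were called, 1 higher and 2 lower, against 27.1% (10.8% and 16.2%). With 8 to 10 genes these counts are no result about the group against that background, and the genes are described singly. ETV1 in Molm-14 and ETV4 in SKNO-1 passed the filter of 1 CPM in 3 of 6 libraries only through the DMSO group, so a fall was favoured there and the counts and medians that hold them support nothing. The median log2 change of the tested members was -0.56, -0.12 and -0.32 for Molm-14, MV4-11 and SKNO-1, beside -0.06, -0.01 and -0.05 for all genes tested. In bulk RNA, fewer cells of a type and less RNA per cell cannot be told apart.

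**Figure D1:**
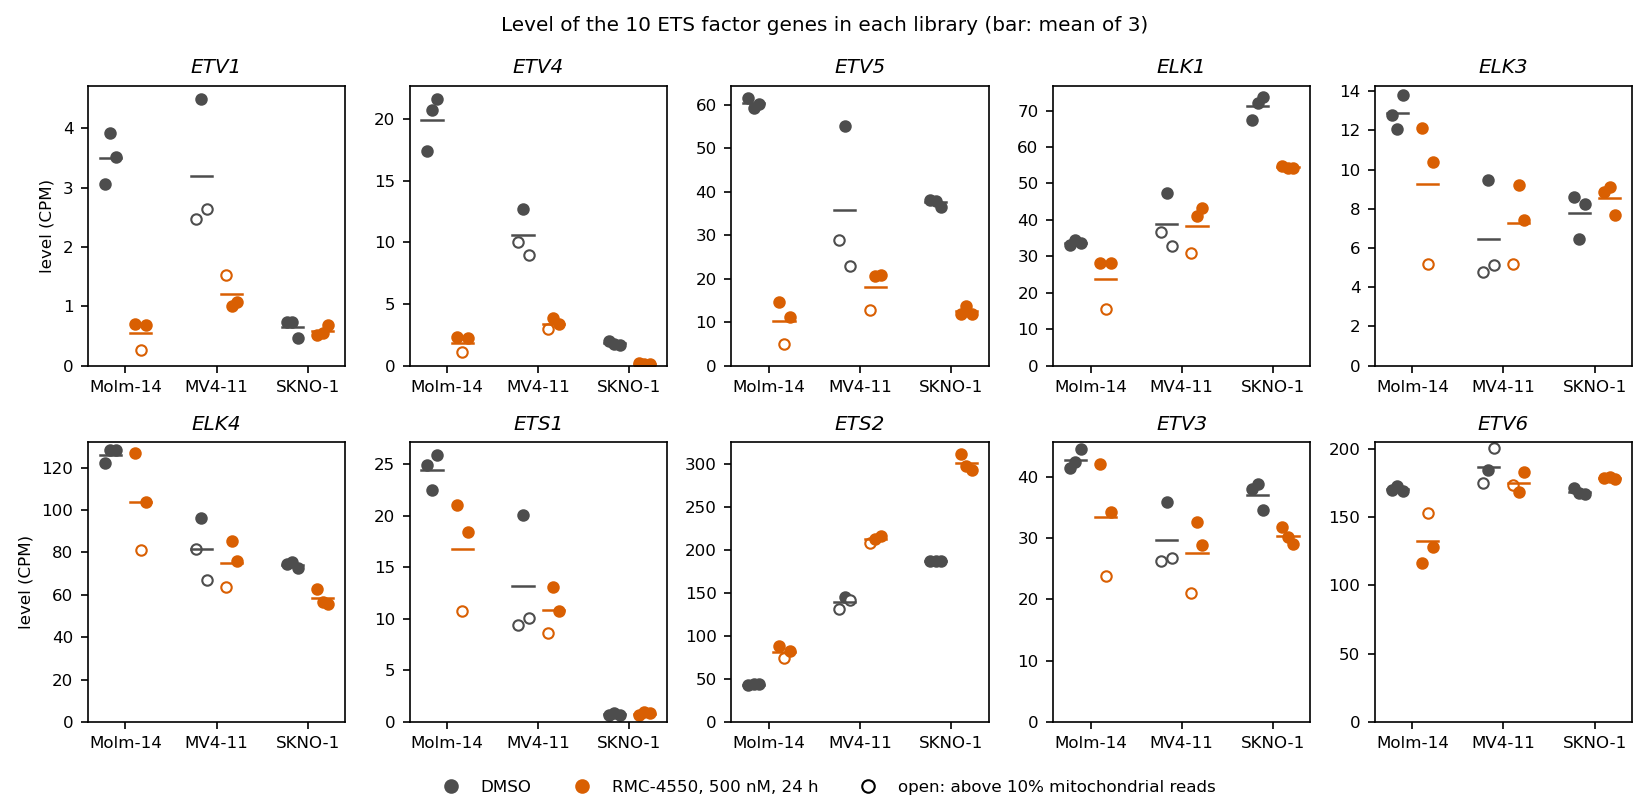
Level of each of the 10 genes in CPM (linear axes from 0, a scale of its own per gene) in every library, by line, with DMSO in grey and 500 nM RMC-4550 in orange. Points are libraries, bars are means of 3, and open points are the 4 libraries above 10% mitochondrial reads. ETV4 and ETS2 have separate DMSO and RMC-4550 points in each line.

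ETV4 activates genes of proliferation and invasion downstream of RAS. In Molm-14 it was read at 17.4, 20.8 and 21.6 CPM with DMSO and at 2.30, 1.09 and 2.21 CPM with RMC-4550. All 3 treated libraries lay far below the lowest DMSO library. The log2 change was -3.47 (SE 0.26, limma adjusted p 7.3e-08), which is 11.0-fold lower from the means of log2 values. The replicate with 15.0% mitochondrial reads was the lowest of the 3, and without it the change was -3.12.

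In MV4-11, ETV4 was read at 10.1, 12.7 and 8.98 CPM with DMSO and at 2.96, 3.90 and 3.35 CPM with RMC-4550. The groups did not overlap, and the treated libraries were close together. The log2 change was -1.63 (SE 0.26, limma adjusted p 0.00053), or 3.08-fold lower. MV4-11 libraries below 10% mitochondrial reads (1 with DMSO, 2 with RMC-4550) gave -1.81 and those above it (2 and 1) gave -1.68. In SKNO-1 the gene was low from the start, at 1.98, 1.79 and 1.65 CPM with DMSO, and was read at 0.231, 0.139 and 0.138 CPM with RMC-4550. The treated libraries held 5, 3 and 3 reads, so the size of this fall is known only roughly. The summed reads were 117 and 11, a ratio of 10.7 after scaling with an exact 95% interval of 5.75 to 21.97 that covers counting error only, since reads without molecular identifiers are not independent molecules. The log2 change was -3.28 (SE 0.26, limma adjusted p 2.2e-07). ETV4 entered this test through its DMSO libraries alone, and with no filter on low values the adjusted p was 7.6e-08.

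ETV5, which works beside ETV4 and keeps stem and progenitor states in several tissues, was read in Molm-14 at 61.5, 59.3 and 60.2 CPM with DMSO and at 14.5, 5.06 and 11.2 CPM with RMC-4550. The log2 change was -2.68 (SE 0.33, limma adjusted p 9.4e-06), or 6.42-fold lower. The DMSO libraries were close together and the treated ones spread, the lowest again being the replicate with 15.0% mitochondrial reads. Without it the change was -2.24. In SKNO-1, ETV5 was read at 38.2, 37.9 and 36.6 CPM with DMSO and at 11.98, 13.7 and 11.9 CPM with RMC-4550. Both SKNO-1 groups were tight and far apart, with a log2 change of -1.59 (SE 0.33, limma adjusted p 0.0019), or 3.00-fold lower.

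In MV4-11, ETV5 was read at 28.9, 55.2 and 22.98 CPM with DMSO and at 12.8, 20.6 and 20.96 CPM with RMC-4550. The groups did not overlap, but the DMSO libraries spread widely, and the 2 low ones were those above 10% mitochondrial reads. The log2 change of -0.91 (SE 0.33) did not pass the threshold (limma adjusted p 0.082). Libraries below 10% mitochondrial reads gave -1.41 and those above it gave -1.004. The change was called with that share as a covariate (-1.38), with voom weights (-0.91) and without replicate 3 of MV4-11 with DMSO (-1.17).

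ETV1, the third PEA3 gene and a driver in gastrointestinal stromal tumours, was read at few reads. In Molm-14 it stood at 3.06, 3.92 and 3.51 CPM with DMSO and at 0.711, 0.256 and 0.679 CPM with RMC-4550. The summed reads were 186 and 29, a ratio of 6.21 after scaling (exact 95% interval 4.18 to 9.53). The log2 change was -2.72 (SE 0.35, limma adjusted p 1.3e-05), and it was -2.28 without the replicate of high mitochondrial share. The treated libraries were all under 1 CPM, so ETV1 entered this test through DMSO alone, and with no filter on low values the limma adjusted p was 1.6e-05.

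In MV4-11, ETV1 was read at 2.48, 4.50 and 2.63 CPM with DMSO and at 1.53, 1.01 and 1.07 CPM with RMC-4550. The groups did not overlap, and the log2 change was -1.37 (SE 0.35, limma adjusted p 0.015). The call was lost without replicate 2 (-1.26) or replicate 3 (-1.29) with RMC-4550 and in a separate fit of the line, and libraries below 10% mitochondrial reads gave -2.09 and those above it -0.73. In SKNO-1 the gene was too low to test, at 0.738, 0.734 and 0.471 CPM with DMSO and 0.509, 0.557 and 0.690 with RMC-4550. These 6 values overlap, from 42 and 38 summed reads, a ratio of 1.11 (exact 95% interval 0.698 to 1.77).

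**Figure D2:**
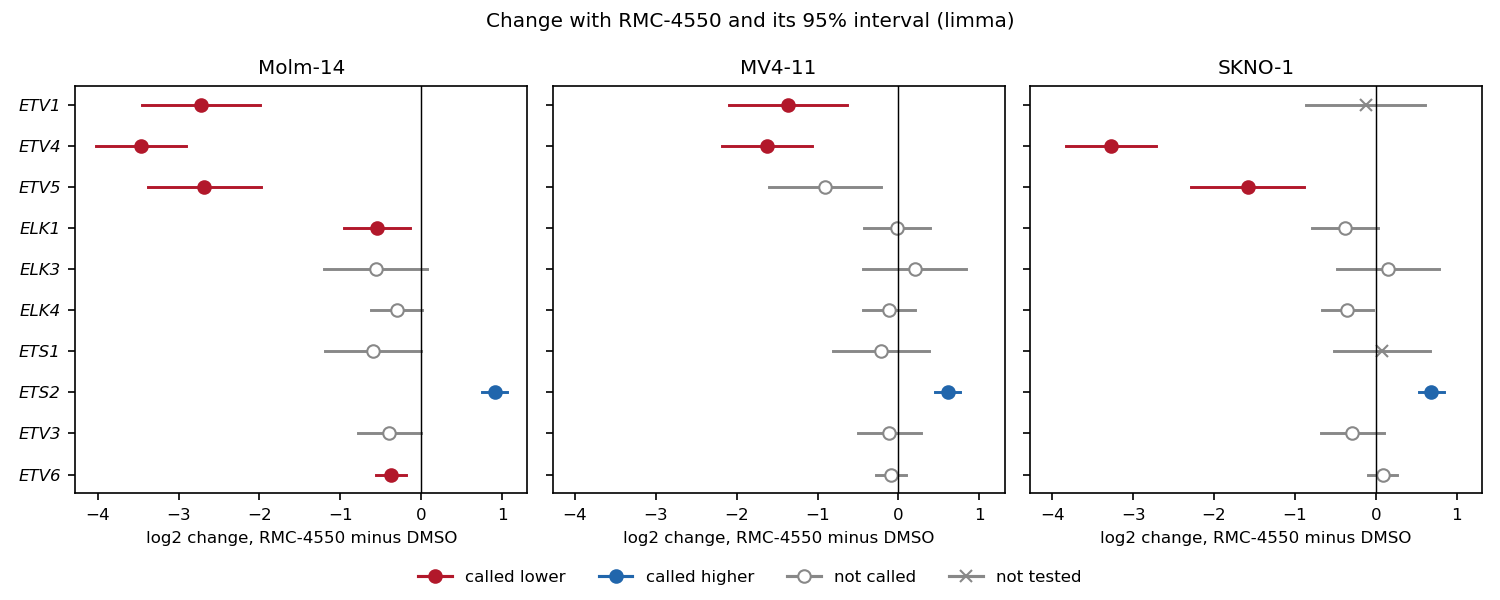
Change of each gene with RMC-4550 minus DMSO on the log2 scale with its 95% interval (limma), by line, on the same axis. Red and blue points are genes called lower and higher, open points were not called and crosses were not tested. ETV4 lies at -3.47, -1.63 and -3.28 and ETS2 at 0.91, 0.61 and 0.69 for Molm-14, MV4-11 and SKNO-1.

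The ELK factors carry the ERK signal to SRF-bound promoters, ELK1 and ELK4 mainly as activators and ELK3 as a repressor that ERK turns into an activator. ELK1 was read in Molm-14 at 33.0, 34.5 and 33.7 CPM with DMSO and at 28.1, 15.4 and 28.2 CPM with RMC-4550. The log2 change was -0.55 (SE 0.19, limma adjusted p 0.028), and it rested on the replicate at 15.4 CPM, the one with 15.0% mitochondrial reads. Without that library it was -0.26 and was not called, and the call was also lost without any 1 of the DMSO libraries (-0.57 to -0.53), in a separate fit of the line, and after quantile normalization (-0.38).

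In SKNO-1, ELK1 was read at 67.5, 72.1 and 73.8 CPM with DMSO and at 54.8, 54.2 and 54.2 CPM with RMC-4550. The groups did not overlap, and the log2 change of -0.39 (SE 0.19) was not called when all 18 libraries were fitted (limma adjusted p 0.16). In MV4-11 it was 32.9 to 47.3 CPM with DMSO and 30.8 to 43.2 CPM with RMC-4550, a log2 change of -0.02 (95% interval -0.43 to 0.39) in groups that overlapped. MV4-11 libraries below 10% mitochondrial reads and those above it each gave -0.17 for ELK1. ELK4 ranged from 122 to 128 CPM with DMSO and from 81.3 to 127 CPM with RMC-4550 in Molm-14 (log2 change -0.30, limma adjusted p 0.11). In SKNO-1, ELK4 ranged from 72.7 to 75.7 CPM with DMSO and from 55.5 to 62.8 CPM with RMC-4550, groups that did not overlap (log2 change -0.35, limma adjusted p 0.097). In MV4-11 the ELK4 change was -0.12 (limma adjusted p 0.68), with -0.26 below 10% mitochondrial reads and -0.21 above.

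In a separate fit of SKNO-1 alone, ELK1, ELK4 and ETV3 were called lower with the same changes (-0.39, -0.35 and -0.29), and the SKNO-1 count was then 6. They were also called without the 4 libraries above 10% mitochondrial reads, none of which is from SKNO-1. ELK3 did not pass the threshold in any line, with log2 changes of -0.56 (95% interval -1.196 to 0.07), 0.20 (-0.43 to 0.83) and 0.15 (-0.49 to 0.78) for Molm-14, MV4-11 and SKNO-1. Its lowest Molm-14 library, at 5.19 CPM against 10.4 and 12.1 for the other treated ones, was again the one with 15.0% mitochondrial reads. MV4-11 libraries below 10% mitochondrial reads gave -0.20 for ELK3 and those above it 0.06.

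ETS2, a direct ERK substrate that acts in macrophages and megakaryocytes and lies on chromosome 21, was the gene of the 10 that rose. In Molm-14 it was read at 42.4, 43.6 and 44.0 CPM with DMSO and at 88.2, 74.0 and 82.3 CPM with RMC-4550 (log2 change 0.91, SE 0.07, limma adjusted p 1.1e-07, 1.88-fold higher). In MV4-11 it was read at 131, 146 and 142 CPM with DMSO and at 208, 213 and 217 CPM with RMC-4550 (log2 change 0.61, SE 0.07, limma adjusted p 3.1e-05, 1.52-fold higher). In SKNO-1 it was read at 187 CPM in each DMSO library and at 312, 298 and 294 CPM with RMC-4550 (log2 change 0.69, SE 0.07, limma adjusted p 3.1e-06, 1.61-fold higher). In each line every treated library lay above every DMSO library. The change was as large in MV4-11 libraries under 10% mitochondrial reads (0.56) and above (0.61), and was 0.98 in Molm-14 without the replicate at 15.0%. Calls higher in each of the 3 lines were made for 3.11% of the 12792 genes tested in all of them, and calls lower in each for 5.8%. ETS2 was among the former and ETV4 among the latter. ETV4 passed the filter in SKNO-1 only through DMSO, so its place there is a description.

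ETS1, a lymphoid and endothelial activator close in sequence to ETS2, was not called in any line. In Molm-14 it was read at 24.9, 22.4 and 25.8 CPM with DMSO and at 21.04, 10.8 and 18.4 CPM with RMC-4550. The groups did not overlap, and the log2 change of -0.60 did not pass the threshold (SE 0.28, limma adjusted p 0.091). It was -0.31 without the replicate at 15.0% mitochondrial reads. In MV4-11 it ranged from 9.42 to 20.1 CPM with DMSO and from 8.66 to 13.1 with RMC-4550, a log2 change of -0.22 (95% interval -0.81 to 0.38) in groups that overlapped. MV4-11 libraries below 10% mitochondrial reads (1 with DMSO, 2 with RMC-4550) gave -0.76 for ETS1 and those above it -0.17. In SKNO-1 it was too low to test, from 0.692 to 0.872 CPM with DMSO and from 0.648 to 0.928 CPM with RMC-4550 (49 and 52 summed reads).

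ETV6 was read in Molm-14 at 169, 173 and 169 CPM with DMSO and at 117, 153 and 128 CPM with RMC-4550. It fell, with a log2 change of -0.37 (SE 0.09, limma adjusted p 0.0023), or 1.29-fold lower. Here the library with 15.0% mitochondrial reads was the highest of the treated ones, and the change was -0.48 without it. In MV4-11 the gene ranged from 175 to 200.4 CPM with DMSO and from 169 to 183 CPM with RMC-4550 (log2 change -0.09, 95% interval -0.27 to 0.09). In SKNO-1 it went from 167 to 171 CPM with DMSO to 178 to 179 CPM with RMC-4550, groups that did not overlap, with a log2 change of 0.08 (95% interval -0.10 to 0.27) that did not pass the threshold. ETV3 did not pass the threshold in any line, with log2 changes of -0.40 (95% interval -0.79 to -0.01), -0.12 (-0.51 to 0.28) and -0.29 (-0.68 to 0.10) in the same order. Its treated Molm-14 libraries were read at 42.1, 23.8 and 34.3 CPM, the lowest being the one with 15.0% mitochondrial reads. MV4-11 libraries below 10% mitochondrial reads gave -0.22 for ETV3 and those above it -0.33.

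The Molm-14 calls moved with single libraries. With RMC-4550 replicate 1 left out, 10 of 10 genes were called, with ELK3 at -0.80, ELK4 at -0.46, ETS1 at -0.79 and ETV3 at -0.58. Without replicate 2, which holds 15.0% mitochondrial reads, those 4 changes were -0.19, -0.14, -0.31 and -0.17, and ETV1, ETV4, ETV5, ETS2 and ETV6 were called. Groups that did not overlap were found for 7 of 10 genes in Molm-14 (60.0% of all tested genes), 4 of 10 in MV4-11 (24.6%) and 7 of 8 in SKNO-1 (62.0%).

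**Figure D3:**
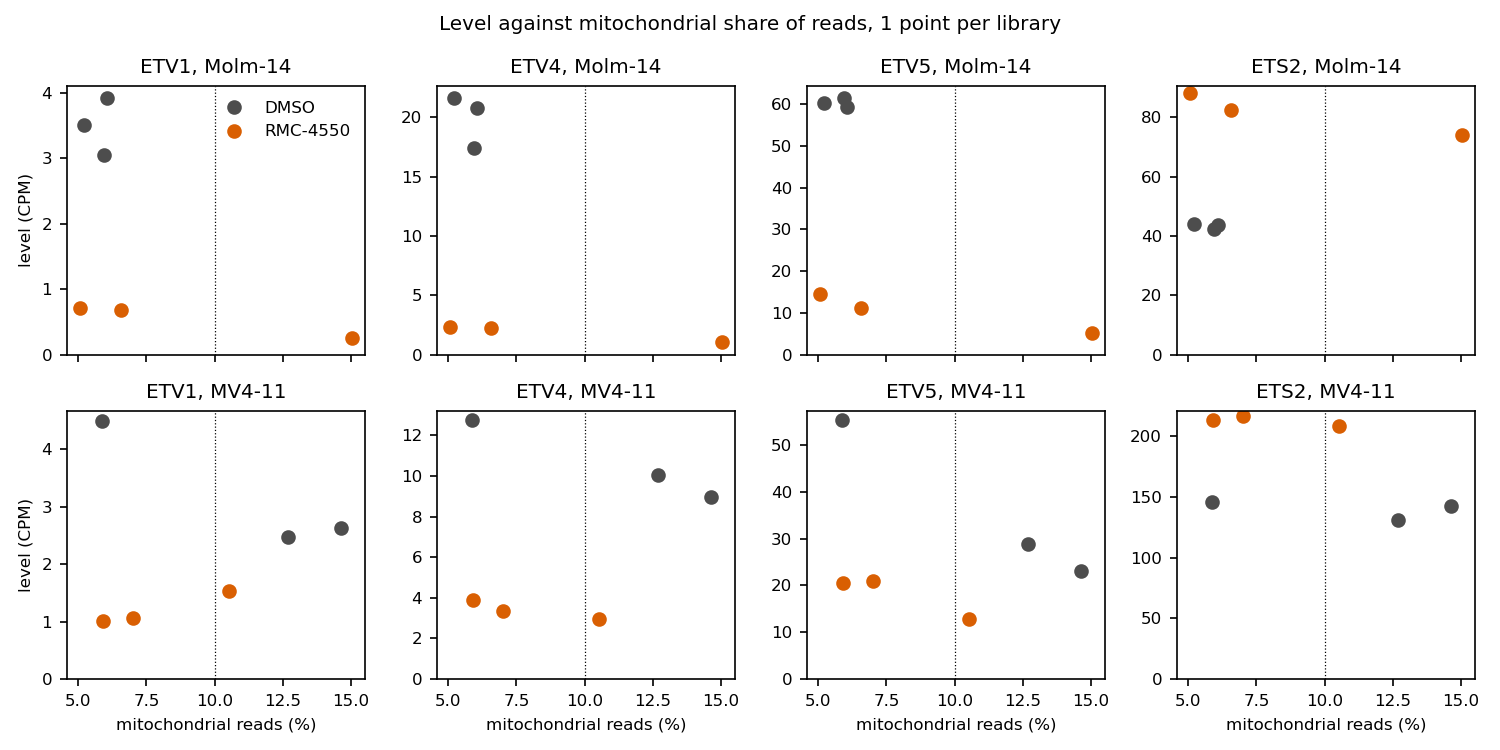
Level in CPM (linear axes from 0) of ETV1, ETV4, ETV5 and ETS2 against the share of mitochondrial reads in percent, 1 point per library of Molm-14 (top) and MV4-11 (bottom), with a dotted line at 10%. ETV5 in MV4-11 with DMSO is at 55.2 CPM in the library under 10% and at 28.9 and 22.98 CPM in those above, while ETS2 in MV4-11 is higher with RMC-4550 on both sides of the line.

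Whether responses differed between lines was tested with the interaction, the difference of the 2 changes. Between MV4-11 and Molm-14, 3 of 10 genes were called (17.6% of all tested genes). The ETV4 and ETV5 changes were less negative in MV4-11, by 1.84 (SE 0.37, limma adjusted p 0.0042) and 1.77 (SE 0.46, limma adjusted p 0.018) on the log2 scale, and ETS2 rose less, by -0.30 (SE 0.10, limma adjusted p 0.04997). The ETV5 difference lost its call in a separate fit of both lines and without replicate 1 (1.67) or 3 (1.51) of MV4-11 with DMSO or replicate 2 with RMC-4550 (1.66). Without the 4 libraries above 10% mitochondrial reads the ETV4, ETV5 and ETS2 differences were 1.31, 0.83 and -0.41. That fit holds 1 MV4-11 DMSO library, so no calls are given for it. The ETS2 difference was lost in 6 of 11 alternative settings and without any 1 of 10 libraries, with values from -0.37 to -0.24.

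Between SKNO-1 and Molm-14, 2 of 10 were called (9.62% of all tested genes): ETV1, by 2.60 (SE 0.49, limma adjusted p 0.0029), and ETV6, by 0.45 (SE 0.12, limma adjusted p 0.026). ETV1 entered that comparison only through Molm-14, since it was too low to test in SKNO-1, and there only through DMSO, so its value is a description. The ETV6 difference lost its call without any 1 of 10 libraries, and fell to 0.37 when Molm-14 RMC-4550 replicate 1 was left out. Between SKNO-1 and MV4-11, 1 of 10 was called (1.57% of all tested genes), ETV4 by -1.65 (SE 0.37, limma adjusted p 0.031). The treated SKNO-1 libraries held 5, 3 and 3 reads of ETV4, which passed the filter in that line only through DMSO. This value too is a description. With log2(CPM + 1), which shrinks changes of low genes, the ETV4 value was 0.13 and not called, and its call was also lost without any 1 of 9 libraries (-1.72 to -1.54).

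Levels with DMSO differed between at least 1 pair of lines for 9 of the 10 genes, all but ETV6, against 79.0% of the 15248 genes tested between at least 1 pair. ETS1 was read at 24.4 ± 1.77 CPM (SD, n = 3) for Molm-14, 13.2 ± 5.99 for MV4-11 and 0.757 ± 0.10 for SKNO-1, so that SKNO-1 was 31.4-fold lower than Molm-14 and 16.0-fold lower than MV4-11 (log2 differences -4.97 and -4.00, limma adjusted p 1.6e-10 and 1.1e-08). ETV4 was read at 19.9 ± 2.23, 10.6 ± 1.93 and 1.81 ± 0.169 CPM in the same order, and ETV1 at 3.496 ± 0.433, 3.20 ± 1.13 and 0.648 ± 0.153 CPM. Both were lower in SKNO-1 than in either other line, ETV4 by 10.9-fold and 5.76-fold and ETV1 by 5.33-fold and 4.73-fold against Molm-14 and MV4-11 (limma adjusted p at most 9.0e-05). ETV1 and ETS1 passed the filter in these comparisons only through the line where they were high, so a difference was built in.

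ETS2 went the other way. It stood at 43.3 ± 0.786 CPM for Molm-14, 139.8 ± 7.56 for MV4-11 and 187 ± 0.122 for SKNO-1. Neighbours in that order differed, with log2 differences of 1.69 between MV4-11 and Molm-14 (limma adjusted p 1.2e-11) and 0.42 between SKNO-1 and MV4-11 (limma adjusted p 0.00021). Molm-14 with RMC-4550, at 74.0 to 88.2 CPM, stayed below the DMSO level of either other line. ELK1 was read at 33.8 ± 0.771, 39.0 ± 7.46 and 71.1 ± 3.24 CPM in the same order of lines. It was 2.11-fold higher in SKNO-1 than in Molm-14 (limma adjusted p 0.00012) and 1.85-fold higher than in MV4-11 (limma adjusted p 0.0018), and the Molm-14 and MV4-11 levels did not differ beyond their spread (log2 difference 0.19, 95% interval -0.22 to 0.60).

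ELK4 and ELK3 were highest in Molm-14. ELK4 stood at 126 ± 3.58, 81.7 ± 14.8 and 74.3 ± 1.499 CPM for Molm-14, MV4-11 and SKNO-1, and ELK3 at 12.9 ± 0.886, 6.47 ± 2.60 and 7.76 ± 1.13 CPM. For both, MV4-11 and SKNO-1 overlapped. The ELK3 difference between SKNO-1 and Molm-14 (-0.74, limma adjusted p 0.039) lost its call without any 1 of the 6 libraries. ETV5 was read at 60.3 ± 1.09, 35.7 ± 17.2 and 37.5 ± 0.835 CPM, and ETV3 at 42.8 ± 1.54, 29.6 ± 5.39 and 37.1 ± 2.23 CPM. ETV6 was the most even, at 170.2 ± 2.02, 186.7 ± 12.8 and 168.5 ± 2.35 CPM, with no pair of lines past the threshold.

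Of the 10 genes, 7 were called between MV4-11 and Molm-14 (54.2% of all tested genes), 7 between SKNO-1 and Molm-14 (65.3%) and 5 between SKNO-1 and MV4-11 (42.5%). The first of these counts moved with the 2 MV4-11 libraries of high mitochondrial share. Without replicate 1 of MV4-11 with DMSO alone it was 4. Without all libraries above 10%, which leaves 1 MV4-11 DMSO library, no count is given. The ETV4, ETV5, ETS1 and ETV3 differences were then -0.64, -0.13, -0.28 and -0.26, and that of ELK1 was 0.49. ETV5 also lost its call in this comparison without any 1 of 5 libraries, with replicate 2 of MV4-11 with DMSO the only DMSO library whose loss kept it.

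**Figure D4:**
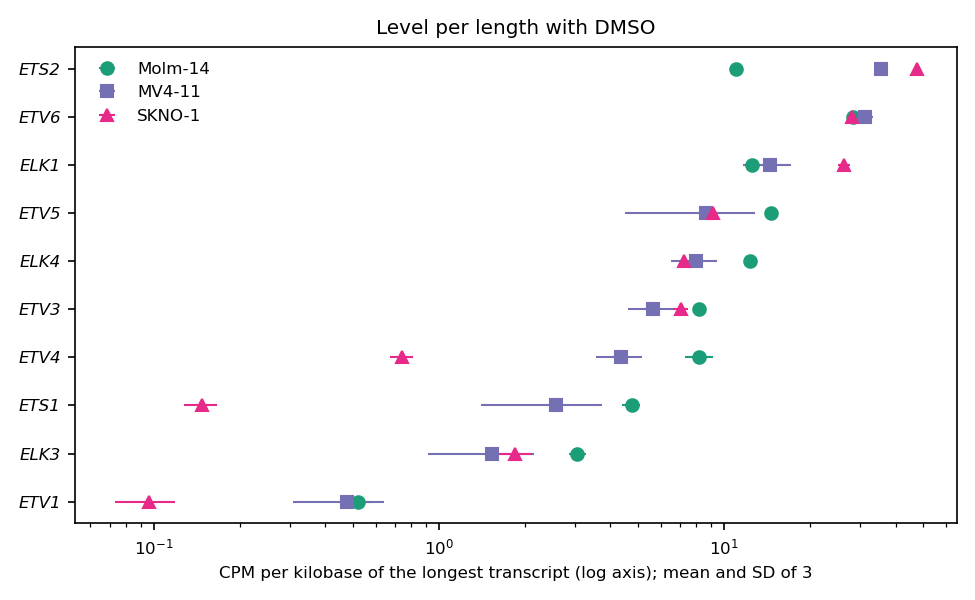
Level with DMSO in CPM per kilobase of the longest GENCODE 29 transcript (log axis) for each gene in the 3 lines, as the mean and SD of 3 libraries. ETS2 runs from 11.0 in Molm-14 to 47.5 in SKNO-1, and ETV1 and ETS1 in SKNO-1 are the lowest points, at 0.0961 and 0.147.

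Per kilobase of the longest annotated transcript, the order of the genes could be compared within a line. With DMSO, ETV6 was the highest in Molm-14 (28.4 CPM per kilobase), followed by ETV5 (14.7), ELK1 (12.5), ELK4 (12.3) and ETS2 (11.0). In MV4-11 and SKNO-1 ETS2 was the highest (35.5 and 47.5), followed by ETV6 (31.2 and 28.1) and ELK1 (14.5 and 26.4). ETV1 was the lowest of the 10 in all 3 lines, at 0.519, 0.475 and 0.0961. ETV4 ranked 6 of 10 in Molm-14 at 8.20 and 9 of 10 there with RMC-4550, at 0.767, while ETS2 went to 20.7 beside ETV6 at 22.1. The order depends on the transcript used. The shortest coding one has 160 bases for ETV6 and 477 for ELK4, against 5989 and 10239 for the longest. With the shortest coding transcript in place of the longest, ETV6 was the highest in all 3 lines, ETS2 ranked 3 in MV4-11 and 2 in SKNO-1, and 40, 38 and 42 of 45 pairs of genes kept their order with DMSO for Molm-14, MV4-11 and SKNO-1.

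The ETV4 gene lies at chr17:43527844-43579620 on the minus strand (GENCODE 29, GRCh38), and 68 of its exonic bases overlap DHX8 on the other strand, which was read at 20.8 to 58.0 CPM. ETV5 lies at chr3:186046308-186110318 on the minus strand and shares 164 exonic bases with DGKG on the same strand (5.15 to 21.2 CPM). ELK4 lies at chr1:205597556-205631962 on the minus strand and overlaps 422 exonic bases of MFSD4A on the other strand (0.383 to 1.65 CPM). The use of strand in counting was not given in the sources used here, so reads of the shared bases could belong to either gene. ETV1 (chr7:13891228-13991425), ETS1 (chr11:128458761-128587558) and ETS2 (chr21:38805307-38824955) had no exonic overlap with another annotated gene that had a row. Annotated genes without a row were left out of this comparison.

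Genes that ERK induces and CIC represses were followed beside the PEA3 genes. The list held DUSP4 and DUSP6, phosphatases that act on ERK and related kinases, SPRY2 and SPRY4, which blunt receptor signalling, and SPRED1 and SPRED2, which bring neurofibromin to RAS. In Molm-14, 6 of 6 fell, in MV4-11 3 of 6, and in SKNO-1 4 of the 4 tested, and 0 rose in any line, beside 25.2%, 8.03% and 16.2% of all tested genes called lower. SPRY4 passed the filter in Molm-14 and MV4-11 only with its DMSO libraries, so these counts and the medians are a description. The median log2 change was -1.12, -0.82 and -1.25, beside -0.06, -0.01 and -0.05 for all genes tested. DUSP6 and SPRED2 fell in all 3 lines, by 0.62, 0.93 and 1.30 for DUSP6 and by 0.74, 0.55 and 1.203 for SPRED2 on the log2 scale for Molm-14, MV4-11 and SKNO-1. The DUSP6 call in Molm-14 was lost after quantile normalization (-0.46), and the SPRED2 call in MV4-11 in a separate fit of the line.

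SPRY4 was read at 10.0, 11.1 and 8.13 CPM with DMSO and at 0.383, 0.897 and 1.19 CPM with RMC-4550 in Molm-14 (log2 change -3.65, SE 0.65, limma adjusted p 0.00028). In MV4-11 it fell by 2.55 (limma adjusted p 0.015, lost without replicate 2 with RMC-4550), and in SKNO-1 it was at or under 0.185 CPM in every library and was not tested. SPRY2 fell by 1.60 in Molm-14 and SPRED1 by 1.32. SPRED1, like SPRY4 and ETS1, was near 0 in SKNO-1, with at most 0.0471 CPM. In MV4-11 SPRY2 (-0.71), SPRED1 (-0.97) and DUSP4 (-0.38) did not pass the threshold, and 6 of 6 did with the mitochondrial share fitted as a covariate.

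Of the regulators of the PEA3 group, 8 genes for CIC, its ATXN1 family partners and the COP1 ligase, 1 rose and 2 fell in Molm-14, 1 rose in MV4-11, and 0 were called in SKNO-1 with limma (1 at an unadjusted p under 0.05, 0 with voom weights). Over all tested genes 46.7%, 13.9% and 27.1% were called in the same order of lines, so these counts are a description. Calls outside the naming rule are named here after their values were seen. CIC rose by 0.30 in Molm-14 (124 to 129 CPM with DMSO, 148 to 167 with RMC-4550) and by 0.30 in MV4-11 (177 to 203 and 215 to 253 CPM), and its change in SKNO-1 was -0.0043 (264 to 271 and 230 to 300 CPM). The CIC call in Molm-14 did not hold when replicate 1 of either group was left out, and that in MV4-11 without any 1 of 4 libraries. The MV4-11 call was also lost in a separate fit of the line, with no filter on low values, with a replicate block and with untrended eBayes. COP1 and DDB1 fell in Molm-14 by 0.21 and 0.73, and both calls were lost in a separate fit of the line. The COP1 call was also lost without any 1 of 5 libraries and the DDB1 call without any 1 of 4, with -0.42 for DDB1 without replicate 2 with RMC-4550.

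The list of SRF, its MRTF partners and immediate early genes showed no common direction. Its called genes are outside the naming rule and were named after their values were seen. In Molm-14, 2 of 10 tested genes rose (FOS by 0.57, JUNB by 0.40) and 2 fell (SRF by 0.68, EGR1 by 0.59). In MV4-11, 0 of 11 were called with limma (2 at an unadjusted p under 0.05, 0 with voom weights), and in SKNO-1 FOS rose by 0.42 and EGR3 fell by 2.40. Over all tested genes 46.7%, 13.9% and 27.1% were called for Molm-14, MV4-11 and SKNO-1. EGR3 was read in SKNO-1 at 2.08, 2.20 and 2.35 CPM with DMSO and at 0.463, 0.371 and 0.368 CPM with RMC-4550. These groups did not overlap, and EGR3 passed the filter only through DMSO (limma adjusted p 4.4e-05 with no filter). The FOS call in SKNO-1 did not hold when DMSO replicate 1 (0.39) or RMC-4550 replicate 2 (0.38) was left out.

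Among the 18 other ETS family genes, 16 had a row and 9, 9 and 10 were tested for Molm-14, MV4-11 and SKNO-1. The counts called higher and lower were 4 and 1 in Molm-14, 2 and 0 in MV4-11, and 1 and 1 in SKNO-1. Over all tested genes the shares higher and lower were 21.5% and 25.2%, 5.85% and 8.03%, and 10.8% and 16.2%. With so few genes these counts are a description. SPIB, a factor of B cells and plasmacytoid dendritic cells close to PU.1, rose in all 3 lines. It was read at 2.28, 2.54 and 2.28 CPM with DMSO and 6.56, 7.88 and 6.90 CPM with RMC-4550 in Molm-14 (log2 change 1.57, SE 0.17, limma adjusted p 2.4e-06). The changes in MV4-11 and SKNO-1 were 1.42 and 1.22. The groups of SPIB did not overlap in any line, and the summed B cell markers ranged from 1.36 to 3.65 CPM over Molm-14 libraries, 9.10 to 12.5 over MV4-11 and 14.6 to 17.8 over SKNO-1 with both treatments; their part in the SPIB result was not tested. ELF4 rose in MV4-11 by 0.51 (limma adjusted p 0.046) in groups that overlapped, a call lost without any 1 of 4 libraries. It was also lost in a separate fit of the line, with no filter on low values, with a replicate block and with untrended eBayes.

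**Figure D5:**
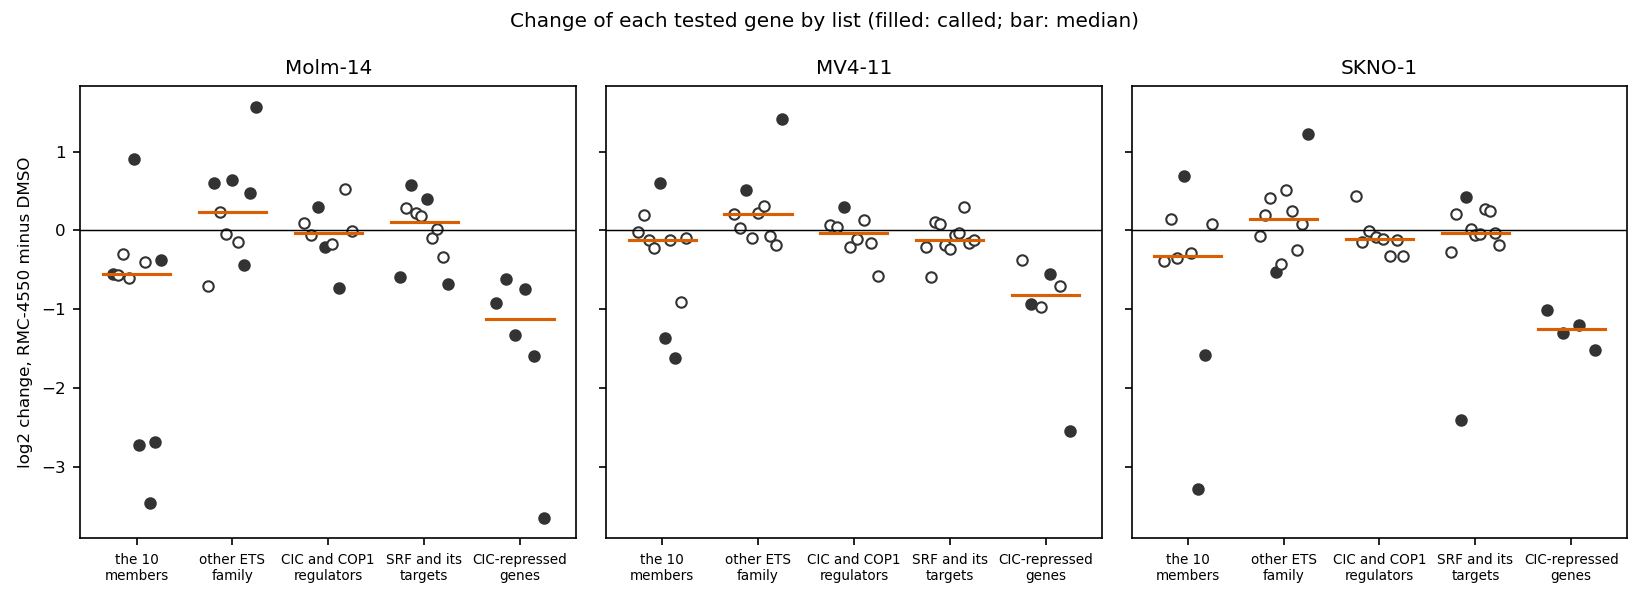
Log2 change with RMC-4550 of each tested gene by list and line. Filled points were called, open points were not, and orange bars are medians. The medians of the CIC-repressed genes are -1.12, -0.82 and -1.25 for Molm-14, MV4-11 and SKNO-1. Those of the tested members (10, 10 and 8 genes) are -0.56, -0.12 and -0.32. Medians that hold genes which passed the filter only with their DMSO libraries are a description.

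Genes with the most similar pattern were found for the 4 genes called in at least 2 lines, as the 3 highest Pearson r over the 18 libraries after removing each line's mean, among 11028 genes. Libraries of a group share treatment and quality, so r is a description. The nearest to ETV4 were BRIP1, DTL and C4orf46 (r 0.99 each), with BRIP1 (a DNA repair helicase) at -1.77, -0.87 and -1.51 and DTL (an adaptor of the CUL4 ligase) at -2.25, -0.92 and -2.13 for Molm-14, MV4-11 and SKNO-1. Among the nearest to ETV5 were SCD and E2F7 (r 0.99 each), with SCD, the stearoyl-CoA desaturase, at -2.39, -0.86 and -1.19.

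For ETV1 they were HHEX (r 0.95), GOT1 (0.94) and INSIG1 (0.94), a haematopoietic homeobox factor, an aspartate aminotransferase and a brake on sterol synthesis. For ETS2 they were H2AC6, PLB1 and RNF130 (r 0.99 each). H2AC6, a histone gene with near-identical copies and so uncertain, changed by 2.57, 1.78 and 1.77, PLB1, a phospholipase, by 1.09, 0.78 and 0.91, and RNF130, a ubiquitin ligase, by 0.89, 0.66 and 0.76. Over all 10 members, 8 of the 30 genes so found were also in the top 3 by Spearman's rho.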

How the data were processed

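RNA-seq libraries of 18 cultures (3 cell lines, DMSO or RMC-4550, 3 replicates each) were analysed from 1 deposited table. Per the labels' protocols, mRNA was captured on oligo(dT) beads and sequenced on DNA nanoballs. Per the submitters' processing notes, FastQC, STAR, limma and GRCh38 were used; the counter, annotation, filters and use of strand are not given in the sources used here. The deposited values are log2 values, and from the values they are the logarithm of CPM, with 0.5 added to the reads, over an effective library. Undoing this gave whole reads (tolerance 0.05) for 100% of values under 50 reads, with scaling of 0.890 to 1.11 per library. The depth of 17434810 to 19959917 reads limits genes under 1 CPM. Symbols matched 40069 of 40184 IDs.

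limma 3.58.1 (R 4.3.3, lmFit and eBayes with trend, two-sided) was fitted once to the deposited log2 values of all 18 libraries, with 1 coefficient per group. Fitting needed 1 CPM or more in 3 or more of the 18 libraries, and testing within a line needed the same in 3 of its 6, with Benjamini-Hochberg adjustment over all genes tested. A test on simulated data, with changes of known size, was run first. The members and lists were chosen with earlier results of these data known. All 10 members are named, and 1 gene of similar pattern is not reported here. List genes are named where called alike in the 3 lines, or among the 3 largest called changes of a line with a mean of at least 5 CPM. The called genes named from the PEA3 regulator and SRF lists fall outside this rule, as do ERG, FLI1 and ERF. Alternatives covered the log scale, filters, scaling, separate fits, voom weights, untrended eBayes, a replicate block, the mitochondrial share, and each library left out. Python 3.11.15 and matplotlib 3.10.9 drew the figures.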

Additional observations from a re-analysis of the deposited data

Results flagged for a closer look

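The difference between lines in the change with RMC-4550 passed the threshold of the limma interaction in 6 comparisons: 3 of 10 genes between MV4-11 and Molm-14 (17.6% of all tested genes), 2 between SKNO-1 and Molm-14 (9.62%) and 1 between SKNO-1 and MV4-11 (1.57%). The ETV4 change was less negative in MV4-11 than in Molm-14, by 1.84 on the log2 scale. The ETV5 change was less negative there too, by 1.77. The rise of ETS2 was smaller in MV4-11 than in Molm-14, a difference of -0.30. For ETV4, the change in SKNO-1 minus that in MV4-11 was -1.65, a description only. The treated SKNO-1 libraries held 3 to 5 reads of ETV4, and the difference changed sign with log2(CPM + 1). For ETV1, the change in SKNO-1 minus that in Molm-14 was 2.60, a description only, since the gene entered through the DMSO libraries of Molm-14 and was too low to test in SKNO-1. For ETV6, the change in SKNO-1 minus that in Molm-14 was 0.45. Of the MV4-11 and Molm-14 libraries, 4 stood above 10% mitochondrial reads, and without them MV4-11 had 1 DMSO library. The differences of MV4-11 from Molm-14 were then 1.31 for ETV4, 0.83 for ETV5 and -0.41 for ETS2.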

How the results depend on the processing

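ETV4 and ETS2 kept their calls with RMC-4550 in all 3 lines under every alternative and without any 1 library, as did ETV5 in Molm-14 and SKNO-1. In MV4-11 the alternative without the libraries above 10% leaves 1 DMSO library and is not counted for these calls. ETV1 kept its call in Molm-14 wherever it was fitted, which leaves out the filter of a mean of at least 5 CPM. Over the single-gene responses, 302 of 327 values under other settings and 162 of 180 with a library left out kept direction and side of the threshold. The mitochondrial share moved most counts of called members. As a covariate it gave 8 of 10 in MV4-11 (3 in the main analysis) and 6 of 8 in SKNO-1 (3), 4 between MV4-11 and Molm-14 levels (7), 8 between SKNO-1 and MV4-11 levels (5), and 4 and 3 response differences of SKNO-1 from Molm-14 (2) and MV4-11 (1). Without the 4 libraries above 10%, 6 of 8 were called in SKNO-1. MV4-11 then had 1 DMSO library, so counts that involve it are not given. A separate fit gave 6 called in SKNO-1 and 1 response difference between MV4-11 and Molm-14 (3). Between SKNO-1 and MV4-11, log2(CPM + 1), no filter, the replicate block and voom gave 0 response differences, and between SKNO-1 and Molm-14, no filter and a mean of at least 5 CPM gave 1. ETV1 was not fitted at a mean of at least 5 CPM. By Spearman's rho, 8 of 30 similar genes were shared. The causes were not tested.

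Leaving out 1 library gave 5 to 10 called in Molm-14, 2 to 4 in MV4-11 and 3 to 3 in SKNO-1, 4 to 7 between MV4-11 and Molm-14 levels, 6 to 6 and 5 to 6 between SKNO-1 and Molm-14 or MV4-11 levels, and 1 to 5, 1 to 2 and 0 to 1 response differences (MV4-11 and Molm-14, SKNO-1 and Molm-14, SKNO-1 and MV4-11).

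Values that changed sign follow. Of these, ETV5 and ELK3 between SKNO-1 and MV4-11 with the covariate were called. Without the 4 libraries MV4-11 had 1 DMSO library, so calls there are not given. Median-ratio scaling gave 0.019 for ELK1 in MV4-11 and 0.034 for the ETV6 level of SKNO-1 against Molm-14. Quantile normalization gave 0.0061 and 0.038 for these, -0.15 for ETS1 in SKNO-1 and -0.65 for the ETV4 response of SKNO-1 against Molm-14. With log2(CPM + 1), ETV4 was 0.13 for the response of SKNO-1 against MV4-11. With the covariate, ELK3 in MV4-11 was -0.20, the ETV1 level of MV4-11 against Molm-14 was 0.34, and ETV5, ELK3 and ETV3 levels of SKNO-1 against MV4-11 were -0.66, -0.39 and -0.084. Responses of MV4-11 against Molm-14 were -0.020, -0.19, -0.32 and -0.19 for ELK3, ELK4, ETS1 and ETV3, of SKNO-1 against Molm-14 -0.048, -0.055 and -0.10 for ETV4, ELK1 and ETV3, and of SKNO-1 against MV4-11 0.39 and 0.091 for ELK3 and ETV3. Without the 4 libraries, the same values were -0.20, 0.37, -0.56 and -0.30 (ETV5 and ELK3), -0.00055, -0.12, -0.46 and -0.053, -0.15, -0.12 and -0.12, and 0.34 (ELK3).

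With a library left out, sign changes gave ranges in MV4-11 of -0.14 to 0.13 for ELK1, -0.25 to 0.013 for ELK4, -0.41 to 0.13 for ETS1 and -0.25 to 0.066 for ETV3, and in SKNO-1 of -0.039 to 0.21 for ETS1. Levels of SKNO-1 against MV4-11 ran from -0.090 to 0.54 for ETV5 and -0.26 to 0.0071 for ELK4. Responses of SKNO-1 against Molm-14 ran from -0.15 to 0.37 (ETV4), -0.12 to 0.31 (ELK1), -0.21 to 0.11 (ELK4) and -0.12 to 0.29 (ETV3), and against MV4-11 from -0.36 to 0.14 (ELK3) and -0.059 to 0.49 (ETS1).

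Same-numbered DMSO and RMC-4550 libraries did not deviate together in every pair (r from -0.40 to 0.59 across genes, 3 of 9 best with their own number), so the numbers were not taken as pairs. With 3 libraries per group these values cannot show that pairing is absent. With the replicate block the counts were 6, 3 and 3 for responses, 6, 6 and 5 for levels and 2, 2 and 0 for response differences, and ETV5 (-0.86) and ELK3 (-0.74) levels and the ETS2 (-0.30) and ETV4 (-1.65) differences lost their calls.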

Other observations

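ERG, an ETS factor of blood stem cells that is not among the 10 genes, ranged in SKNO-1 from 6.65 to 8.17 CPM with DMSO and from 4.40 to 6.31 CPM with RMC-4550, and was at 0.0538 CPM or less in each Molm-14 and MV4-11 library. FLI1, its closest relative, ranged with DMSO from 239 to 249 CPM for Molm-14, 138 to 185 for MV4-11 and 157 to 178 for SKNO-1. The ERG change in SKNO-1 did not pass the threshold (log2 change -0.43, limma adjusted p 0.49), although its groups did not overlap. ERF, an ETS repressor that ERK removes from the nucleus, ranged in SKNO-1 from 73.4 to 74.3 CPM with DMSO and from 48.9 to 54.5 CPM with RMC-4550, a fall of log2 -0.53 (SE 0.08, limma adjusted p 0.0002). Its changes in Molm-14 and MV4-11 were -0.04 and -0.10 and were not called, and the difference between lines was not tested for this gene. ERG, FLI1 and ERF were chosen after their values were seen.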
